A study of Mus musculus with 12 samples.

Results

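The genes described here are 9 complement components and receptors: C1qa, C1qb, C1qc, C4b, C3, Cfb, Cfp, C3ar1 and C5ar1. They were picked by symbol from a table of 55487 mouse genes, of which 19890 had enough counts to be tested, and all 9 were among those tested. Complement is a cascade of plasma and tissue proteins that marks surfaces for uptake and, at its end, opens pores in membranes. It starts in 3 ways: C1q binds antibody or dying cells (classical), lectins bind sugars (lectin), or C3 activates by itself on a surface (alternative), and every route meets at the cleavage of C3. The fragments C3a and C5a call in and activate myeloid cells through their receptors, macrophages are a main source of C1q, and tubule cells and leukocytes can make C3 and factor B within the kidney.

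The study set loss of a centriole protein beside loss of a ciliary protein, to compare the pathways disturbed in the kidney. The RNA was of whole mouse kidney at postnatal day 15, in 4 groups with 3 libraries each. Cep120 KO libraries are labelled as homozygous for loss of Cep120, a centriole protein, under Hoxb7-Cre, and Pkd1 KO libraries as homozygous for loss of Pkd1, which encodes polycystin-1, under the same driver. Each line has its own controls, marked het by title but WT by genotype, and the labels do not say whether these carried the Cre or 1 mutant allele. Hoxb7-Cre is active in the ureteric bud lineage, which forms the collecting duct, so most other kidney cells keep the gene. Nothing in the labels says that the libraries within a group are of separate animals, and p-values here measure the spread between libraries.

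Totals ran from 23070688 to 31837958 counts per library. Neither targeted gene was lower in its KO libraries: Cep120 differed by a log2 fold change of 0.14 in the Cep120 comparison (edgeR adjusted p = 0.835), and Pkd1 rose by 0.74 in the Pkd1 comparison (edgeR adjusted p = 0.00952), so these levels do not check the labels. The third control of each line stood apart from its own group. The library labelled Cep120 control 3 differed by a mean of 0.360 and 0.385 log2 units per gene from Pkd1 controls 1 and 2, against 0.568 and 0.534 from Cep120 controls 1 and 2. In turn, the library labelled Pkd1 control 3 differed by 0.423 and 0.409 from Cep120 controls 1 and 2, against 0.607 and 0.610 from Pkd1 controls 1 and 2. Groups follow the labels, and the Pkd1 log2 fold changes of the 9 genes are given with and without both libraries. Xist, expressed from an inactive X, was at 49.97 to 184 CPM (read counts scaled to library size with edgeR's TMM) in all 6 controls and Cep120 KO 3, and at 0 to 0.325 CPM in Cep120 KO 1 and 2 and all 3 Pkd1 KO libraries. In the Pkd1 line, genotype and the presence of Xist therefore cannot be told apart. The Y-linked gene Ddx3y was at 53.6 to 55.8 CPM in Pkd1 KO, at 0 in Pkd1 controls 1 and 2 and at 39.4 CPM in the library labelled Pkd1 control 3, which thus held Xist and Y-linked RNA together. Ddx3y was at 41.8 and 48.3 CPM in Cep120 KO 1 and 2, and at 0 in the library labelled Cep120 control 3. It was at 4.68 to 10.7 CPM in Cep120 KO 3 and Cep120 controls 1 and 2, which thus also held both.

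In Pkd1 KO kidneys 8 of the 9 genes were higher than in Pkd1 controls and 0 were lower, by edgeR's quasi-likelihood test at an adjusted p of 0.05, and Cfb did not pass. Over all genes tested, 22.1% were higher and 22.4% lower. The median log2 fold change was 2.63 over the 9 genes and -0.04 over all genes. For 8 genes every Pkd1 KO library lay above every Pkd1 control, as for 27.4% of all genes, and for Cfb every KO library lay below every control, as for 25.5%. In Cep120 KO kidneys 0 of the 9 genes passed by edgeR, by DESeq2 or by limma voom, and 0 had an unadjusted p under 0.05. For none of them were the Cep120 groups apart, although 8.64% of all genes had every KO library above every control there and 7.88% below. Among all genes 0% passed by edgeR there and 6.04% had an unadjusted p under 0.05, while DESeq2 called 21 genes. The change itself differed between the lines for 7 of the 9 genes, all with the larger rise in the Pkd1 line, and 13.9% of all genes did so in that direction.

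**Figure D1:**
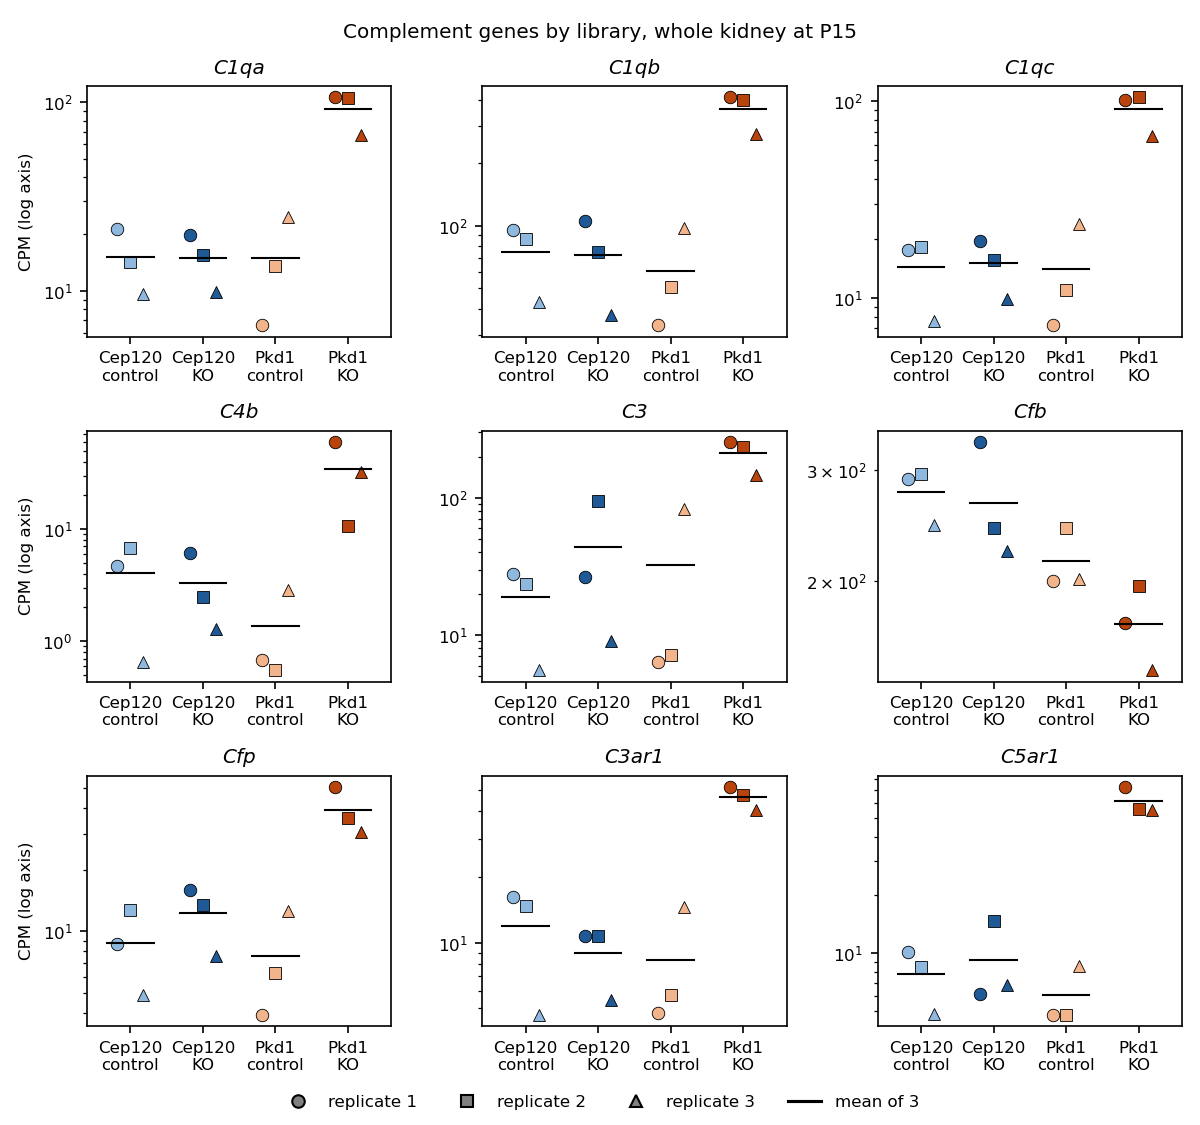
Level of each of the 9 complement genes in every library, in CPM on a log axis, by group; symbols give the replicate number and bars the mean of 3 libraries. Every Pkd1 KO library lies above every Pkd1 control for 8 genes, and below for Cfb.

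C1q is the recognition molecule of the classical pathway, built from A, B and C chains encoded by C1qa, C1qb and C1qc. C1qa was at 106, 105 and 66.8 CPM in Pkd1 KO 1 to 3 and at 6.58, 13.6 and 24.7 CPM in Pkd1 controls 1 to 3. In the Cep120 line it was at 19.8, 15.5 and 9.87 CPM in KO 1 to 3 and at 21.4, 14.2 and 9.66 CPM in controls 1 to 3. The Pkd1 groups did not overlap, whereas the Cep120 groups covered nearly the same range. C1qb, the chain with the most counts, was at 412, 398 and 276 CPM in Pkd1 KO and at 33.2, 50.5 and 97.6 CPM in Pkd1 controls. Its Cep120 values were 105, 74.9 and 37.1 CPM in KO and 95.6, 86.4 and 42.9 CPM in controls. C1qc was at 101, 104 and 66.7 CPM in Pkd1 KO against 7.23, 11.0 and 23.7 CPM in Pkd1 controls. Within the Pkd1 controls all 3 chains were highest in the library labelled Pkd1 control 3, and within the Cep120 controls lowest in the library labelled Cep120 control 3.

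The 3 chains rose by nearly the same amount in the Pkd1 comparison. Log2 fold changes were 2.63 for C1qa (SE 0.43, edgeR adjusted p = 0.00035), 2.58 for C1qb (SE 0.44, adjusted p = 0.000501) and 2.70 for C1qc (SE 0.43, adjusted p = 0.000297), or 6.19-fold, 5.99-fold and 6.5-fold. Without both replicate 3 controls they were 3.21, 3.11 and 3.33. In the Cep120 comparison they were -0.0037, -0.05 and 0.05 with SEs of 0.42, and -0.24, -0.34 and -0.26 without both replicate 3 controls (SEs 0.34, 0.33 and 0.27). The difference between the lines was 2.63, 2.64 and 2.65 (edgeR adjusted p = 0.00615, 0.00691 and 0.00601), and 3.46, 3.45 and 3.59 without both replicate 3 controls. Ratios between chains were taken in TPM (a length-normalised share of transcripts). Over the libraries outside Pkd1 KO, that of C1qb to C1qa ran from 3.40 to 5.59, and that of C1qc to C1qa from 0.676 to 1.10. Pkd1 KO libraries lay inside both ranges, at 3.45 to 3.79, near the low end of the first, and 0.809 to 0.848. In Pkd1 KO the chains stood in proportions also seen in the other libraries, at a higher level.

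Promoter windows of RefSeq (GRCm38.p6), the 250 bases before each gene's start, were at hand for 6 of the 9 genes: C1qb, C1qc, C3, C3ar1, C5ar1 and Cfp. They were searched on both strands for AGGAAGT, a core bound by the myeloid factor PU.1 and other ETS factors, since most of these genes are made by macrophages. C1qb (chr4:136886201-136886450), C1qc (chr4:136892915-136893164) and C5ar1 (chr7:16259339-16259588), all on the minus strand, held it, against 7.69% of 32851 windows of that length. The windows are printed 5′ to 3′ along each gene, with capitals marking the match, which reads ACTTCCT because it lies on the opposite strand.
C1qb: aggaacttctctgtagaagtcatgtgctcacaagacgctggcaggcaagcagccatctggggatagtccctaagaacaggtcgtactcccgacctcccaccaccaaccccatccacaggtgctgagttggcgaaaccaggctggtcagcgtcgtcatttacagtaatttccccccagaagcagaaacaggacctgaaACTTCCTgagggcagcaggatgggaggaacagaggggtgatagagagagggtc
C1qc: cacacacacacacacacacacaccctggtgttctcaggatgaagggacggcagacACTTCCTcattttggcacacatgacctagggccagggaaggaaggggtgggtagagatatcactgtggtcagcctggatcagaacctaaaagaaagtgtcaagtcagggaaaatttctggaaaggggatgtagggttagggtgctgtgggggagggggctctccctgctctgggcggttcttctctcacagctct
C5ar1: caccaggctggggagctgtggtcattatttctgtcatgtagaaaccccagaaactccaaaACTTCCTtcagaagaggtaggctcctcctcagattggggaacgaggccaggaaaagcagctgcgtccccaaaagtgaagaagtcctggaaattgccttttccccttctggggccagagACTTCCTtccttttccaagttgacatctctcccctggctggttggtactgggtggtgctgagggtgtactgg
C1qb has 1 match 53 bases before its start, C1qc 1 match 195 bases before, and C5ar1 2 matches 190 and 72 bases before. A match describes the letters and does not show that a factor binds there.

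C4b encodes complement C4, which the C1 complex cleaves to build the classical C3 convertase. It was at 59.6, 10.8 and 32.1 CPM in Pkd1 KO 1 to 3 and at 0.684, 0.553 and 2.87 CPM in Pkd1 controls 1 to 3. In the Cep120 line it was at 6.12, 2.47 and 1.28 CPM in KO and at 4.70, 6.76 and 0.649 CPM in controls. The Pkd1 groups did not overlap, and by ratio of highest to lowest the Pkd1 KO libraries differed among themselves more for this gene than for any other of the 9. C4b had the largest fitted rise of the 9, 4.62 in log2 units (SE 0.91, edgeR adjusted p = 0.00133), resting on as few as 11 counts in a control library. The difference from the Cep120 line was 4.92 (SE 1.20, edgeR adjusted p = 0.00984; limma voom adjusted p = 0.057). Without both replicate 3 controls the Pkd1 value was 5.75 and the difference 6.57.

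C4b has a near-identical copy, C4a, so reads could have been split between them and both genes are uncertain. C4a was at 0.372, 0.193 and 4.56 CPM in Pkd1 KO 1 to 3 and at 0 to 0.10 CPM in Pkd1 controls. Its rise (log2 fold change 4.87, edgeR adjusted p = 0.00802) was lost without Pkd1 KO 3, at 2.27 and an adjusted p of 0.110, as it was with limma voom (3.69, adjusted p = 0.108) and with Xist presence as a term (3.79, adjusted p = 0.309). That library also held RNA of 4 adrenal marker genes at a summed 1113 CPM, against 1.91 to 4.2 CPM in the other 11 libraries, and the part of this in the C4a and C4b values was not tested. With C4a counts added to C4b, a setting chosen after seeing the data, the log2 fold change was 4.63 (edgeR adjusted p = 0.00108). Estimated counts of the retained-intron transcript C4b-203 were 97.7, 27.6 and 127 in Pkd1 KO 1 to 3, 2.77 in Pkd1 control 3 and 0 elsewhere, at most 14.3% of the gene.

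C3 is the component on which all 3 routes converge. It was at 255, 233 and 147 CPM in Pkd1 KO 1 to 3 and at 6.42, 7.13 and 83.2 CPM in Pkd1 controls 1 to 3. In the Cep120 line it was at 26.7, 94.8 and 9.02 CPM in KO 1 to 3 and at 27.9, 23.5 and 5.56 CPM in controls 1 to 3. Pkd1 KO libraries were all above their controls, but a single library stood high in the Pkd1 control group (3) and in the Cep120 KO group (2). Those same libraries had the highest summed level of 8 tubular injury markers in their groups, 561.9 CPM against 303.4 and 331.6, and 592 CPM against 305 and 291.5. They were also highest for 12 macrophage markers, at 440 CPM against 157 and 173, and 378 CPM against 340 and 226. The part of either marker set in the C3 values was not tested.

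The rise of C3 in the Pkd1 comparison passed narrowly, at 2.71 log2 units (SE 0.997, edgeR adjusted p = 0.0419). It no longer passed with upper quartile scaling (adjusted p = 0.0504), or when any 1 of Cep120 controls 1 and 2, Cep120 KO 1, Pkd1 controls 1 and 2 or Pkd1 KO 1 to 3 was left out (adjusted p from 0.0501 to 0.119). Cep120 libraries matter here because the fit shares its estimate of spread over both lines. Without both replicate 3 controls the Pkd1 value was 4.97 (SE 0.82, adjusted p = 0.000446), and without Pkd1 control 3 alone 4.94 (adjusted p = 0.00124). The Cep120 value was 1.20 (SE 0.96, adjusted p = 0.786), and it was -0.10 without Cep120 KO 2. The difference between the lines, 1.51 (SE 1.34, adjusted p = 0.417), did not pass, but was 4.21 (adjusted p = 0.00718) without both replicate 3 controls. The promoter window of C3 (chr17:57228137-57228386, minus strand, GRCm38.p6) is shown because tubule cells as well as leukocytes can make C3. It held TTGCNNAA, a core of C/EBP factors of the acute-phase response, in capitals, 45 bases before the start, as did 9.56% of all windows in at least 1 place.
C3: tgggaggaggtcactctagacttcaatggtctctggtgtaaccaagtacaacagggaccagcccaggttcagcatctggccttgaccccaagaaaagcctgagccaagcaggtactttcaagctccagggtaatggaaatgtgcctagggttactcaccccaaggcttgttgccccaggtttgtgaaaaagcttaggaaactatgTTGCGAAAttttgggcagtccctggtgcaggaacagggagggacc
The window held no AGGAAGT.

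Cfb encodes factor B, the protease of the alternative C3 convertase. It was at 172, 196 and 145 CPM in Pkd1 KO 1 to 3 and at 200.5, 243 and 202 CPM in Pkd1 controls 1 to 3. In the Cep120 line it was at 332, 243 and 223 CPM in KO 1 to 3 and at 291, 295 and 245 CPM in controls 1 to 3. Each Pkd1 KO library was lower than each Pkd1 control, by little. The change was -0.33 log2 units (SE 0.17, edgeR adjusted p = 0.123) in the Pkd1 comparison and -0.06 (SE 0.17, adjusted p = 0.94) in the Cep120 comparison, and neither passed. Without both replicate 3 controls the Pkd1 value was -0.38. In the same Pkd1 KO libraries 7 of 9 kidney epithelium markers fell and 1 rose, their sum going from 5085 to 7488 CPM in Pkd1 controls to 1650 to 3099 CPM in Pkd1 KO. The sum was weighted to Slc34a1 and Umod, at 1839 to 3308 and 1408 to 2058 CPM in Pkd1 controls. The marker that rose was Aqp2, from 41.8 to 357 CPM in Pkd1 controls to 572 to 1749 CPM in Pkd1 KO. The part of these changes in the Cfb values was not tested.

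Cfp encodes properdin, released by leukocytes, which holds the alternative convertase together. It was at 50.7, 35.7 and 30.7 CPM in Pkd1 KO 1 to 3 and at 3.91, 6.23 and 12.5 CPM in Pkd1 controls 1 to 3. Cep120 KO libraries had 15.8, 13.4 and 7.56 CPM and Cep120 controls 8.65, 12.7 and 4.87 CPM, so those groups overlapped. Properdin rose in the Pkd1 comparison by 2.37 log2 units (SE 0.43, edgeR adjusted p = 0.000759), the smallest of the 8 rises, and by 2.96 without both replicate 3 controls. Of the 7 genes whose change differed between the lines it was the weakest, at 1.88 (SE 0.59, edgeR adjusted p = 0.0327). That call was lost when any 1 of Cep120 controls 1 and 2, Cep120 KO 2 and 3, Pkd1 controls 1 and 2 or Pkd1 KO 1 and 2 was left out (adjusted p from 0.0503 to 0.0908). It was 2.76 (adjusted p = 0.00107) without both replicate 3 controls. Its promoter window held none of the motifs searched.

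C3ar1 and C5ar1 encode the receptors for the fragments C3a and C5a on myeloid cells. C3ar1 was at 51.8, 47.7 and 40.8 CPM in Pkd1 KO 1 to 3 and at 4.75, 5.73 and 14.5 CPM in Pkd1 controls 1 to 3. In the Cep120 line it was at 10.7, 10.7 and 5.43 CPM in KO and at 16.2, 14.7 and 4.67 CPM in controls. The Pkd1 groups did not overlap, and the Cep120 groups did. C5ar1 was at 72.6, 55.5 and 55.4 CPM in Pkd1 KO and at 4.79, 4.77 and 8.50 CPM in Pkd1 controls. Cep120 KO libraries had 6.15, 14.6 and 6.81 CPM and Cep120 controls 10.1, 8.47 and 4.83 CPM. For both receptors, as for all 8 genes that rose, every Pkd1 KO library lay above all 9 other libraries.

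C5ar1 rose 10.1-fold in the Pkd1 comparison, or 3.34 log2 units (SE 0.37, edgeR adjusted p = 1.79e-05), the smallest p of the 9 genes. C3ar1 rose 5.60-fold, or 2.49 log2 units (SE 0.47, adjusted p = 0.00101). The values without both replicate 3 controls were 3.68 and 3.16. The difference between the lines was 3.10 for C5ar1 (edgeR adjusted p = 0.000797) and 2.89 for C3ar1 (adjusted p = 0.00641), and 3.68 and 3.95 without both. Most C5ar1 counts lay on the transcript C5ar1-201, 85.7% to 93.7% in Pkd1 KO, and the library labelled Cep120 control 3 was the one with all of its 119 estimated counts on C5ar1-202. The C3ar1 window (GRCm38.p6) held TGANTCA, an AP-1 core found in 6.75% of windows, and an NF-kB core found in 1.41%, at 22 and 14 bases before the start.

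**Figure D2:**
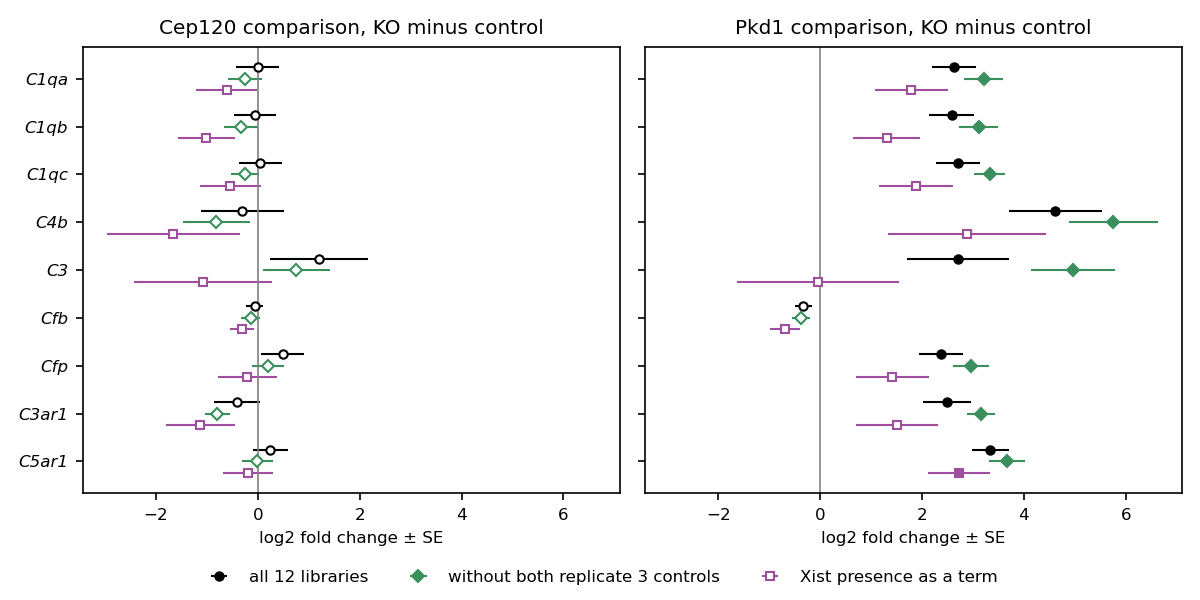
Log2 fold change, KO minus control, of each gene with its SE, in the Cep120 comparison (left) and the Pkd1 comparison (right); filled symbols passed an adjusted p of 0.05. Circles use all 12 libraries, diamonds leave out both replicate 3 controls, and squares add Xist presence as a term, under which C5ar1 alone passed in the Pkd1 comparison.

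With Xist presence as a term, 1 of the 9 genes passed in the Pkd1 comparison, C5ar1 at 2.73 (SE 0.61, edgeR adjusted p = 0.0174), and over all genes 991 were higher and 1011 lower, against 4388 and 4451 without the term. The C1q chains were then at 1.31 to 1.88, C4b at 2.88, C3ar1 at 1.51, Cfp at 1.42 and C3 at -0.04, none of which passed. In the Cep120 comparison the C1q chains were at -1.01 to -0.54, with no call. Xist was present in some libraries and absent in others, at a limit of 10 CPM, within Cep120 KO and in no other group. This term is therefore estimated from Cep120 KO 1 and 2 against Cep120 KO 3, which held Ddx3y as well as Xist. The difference between the lines still passed for 6 genes, all 7 but Cfp, for which the adjusted p was 0.076.

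Most macrophage markers rose in Pkd1 KO, as did all of these genes but Cfb. Of 12 markers that leave out C1q, 9 rose and 0 fell in the Pkd1 comparison. Their summed level was 1049 to 1501 CPM in Pkd1 KO, 157 to 440 CPM in Pkd1 controls, 158 to 393 CPM in Cep120 controls and 226 to 378 CPM in Cep120 KO, and no marker was at 0 in any library. In whole kidney, more cells of a type and more RNA per cell cannot be told apart. T and B cell markers went the other way, with 6 of 7 lower in Pkd1 KO. Neutrophil markers summed to 2.77 to 9.98 CPM over the 12 libraries, with 1 higher and 1 lower in Pkd1 KO.

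Per 100 CPM of the macrophage markers, the summed C1q chains were at 39.1 to 46.0 CPM in Pkd1 KO and at 30.0 to 43.5 CPM in Pkd1 controls, which overlap. Of the single chains C1qc was barely apart, at 6.353 to 7.907 against 4.605 to 6.348, while C1qa and C1qb overlapped. Cfp was at 2.70 to 3.38 in Pkd1 KO against 2.49 to 3.61 in Pkd1 controls, again overlapping. For C3ar1 the values were 3.45 to 3.89 against 3.03 to 3.32, close to each other without overlap. Cep120 controls, at 2.95 to 4.20 for C3ar1, overlapped Pkd1 KO. C5ar1 stood further apart, at 4.2 to 5.28 in Pkd1 KO against 1.93 to 3.05 in Pkd1 controls, and at 1.81 to 3.88 in the Cep120 groups. C4b was apart from Pkd1 controls as well, at 0.815 to 3.97 in Pkd1 KO against 0.320 to 0.653 in Pkd1 controls, with medians of 3.06 and 0.436. The Cep120 libraries, at 0.410 to 1.80 for C4b, overlapped Pkd1 KO. Cfb was lower on this scale, at 11.5 to 14.9 in Pkd1 KO against 45.9 to 141 in Pkd1 controls. C3 was at 14.0 to 17.7 in Pkd1 KO and 4.09 to 18.9 in Pkd1 controls, the top value being that of Pkd1 control 3. The marker sum was weighted to Lyz2, which alone was at 543 to 819 CPM in Pkd1 KO and 39.3 to 183 CPM in Pkd1 controls. Among the 9 markers that rose, fold changes ran from 3.34 (Csf1r) to 8.29 (Itgam), with Lyz2 at 7.27. Ptprc, Aif1 and Mertk were not called, so the ratios depend on the markers chosen. These ratios are descriptions, and the part of macrophage RNA in each rise was not tested.

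**Figure D3:**
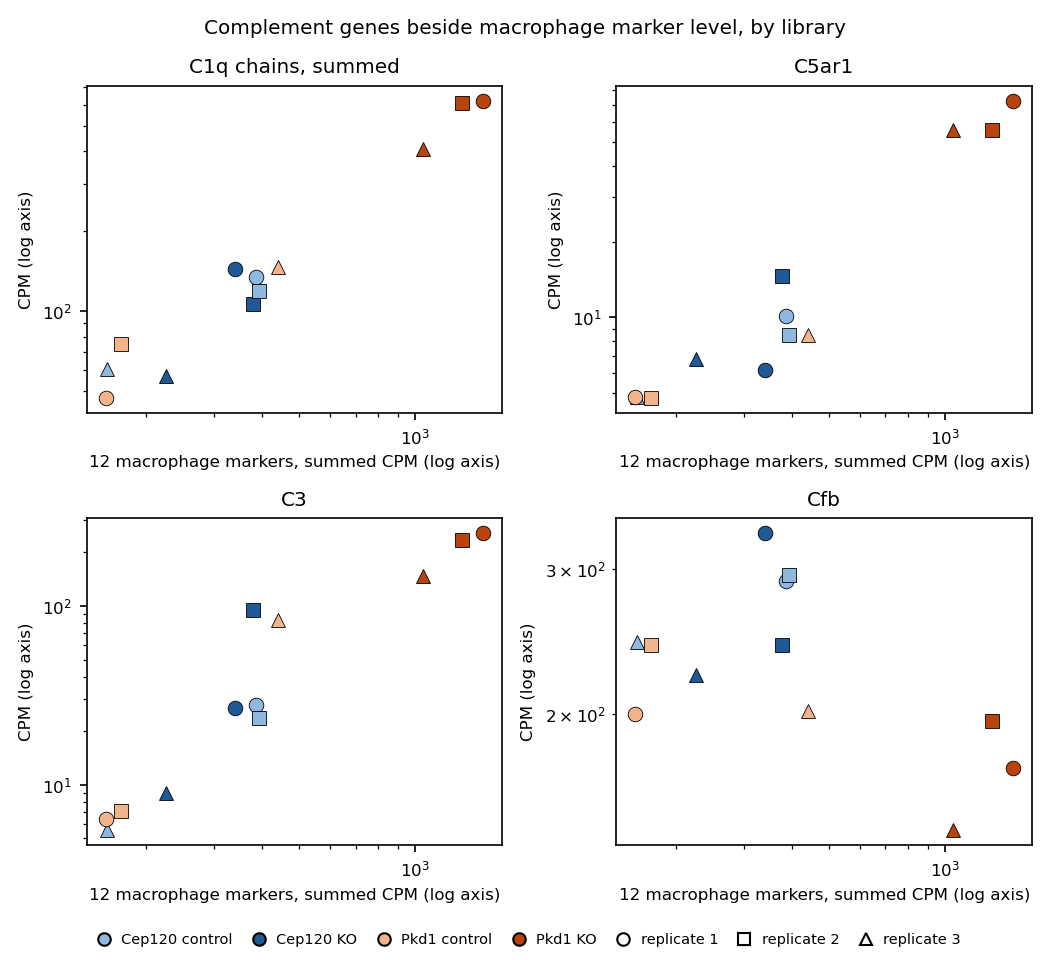
Level of the summed C1q chains, C5ar1, C3 and Cfb against the summed level of 12 macrophage markers in each library, both in CPM on log axes. The 3 Pkd1 KO libraries lie at the right, at 1049 to 1501 CPM of markers, high for C1q, C5ar1 and C3 and low for Cfb.

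Much complement in plasma comes from the liver. The summed 8 hepatocyte markers were at 52.9 to 469 CPM in Pkd1 controls and 504 to 867 CPM in Pkd1 KO, mostly Serpina1a, which alone was at 7.18 to 440.1 and 439 to 762 CPM. Of 7 markers tested 1 rose, Fgb (9.90 to 27.6 CPM in controls and 53.1 to 103 CPM in KO), and 2 fell, Apoa2 and Apob. Alb, the defining product of hepatocytes, was at 0.703 to 0.944 CPM in controls and 0.226 to 1.25 CPM in KO, and F2 at 0 to 0.100 and 0 to 0.406 CPM. The part of these levels in the complement values was not tested. The summed 8 tubular injury markers were at 2585 to 2930 CPM in Pkd1 KO and 303 to 562 CPM in Pkd1 controls, with 6 of 8 higher.

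Levels per transcript length put Cfb first in the controls and C1qb first in Pkd1 KO. In Pkd1 controls mean TPM was 98.3 for Cfb, 71.3 for C1qb, 19.3 for C1qa, 15.6 for C1qc, 11.2 for C3, 5.72 for Cfp, 2.81 for C5ar1, 2.27 for C3ar1 and 0.352 for C4b. Cfb and C1qb overlapped there (89.1 to 115 against 38.8 to 127 TPM), C1qb lay above C1qa (at most 35.3 TPM), and from C1qa to C3ar1 each gene overlapped the next in order. C4b, at most 0.829 TPM, lay below all others. In Pkd1 KO the order was C1qb at 469, C1qa at 132, C1qc at 109, Cfb at 85.9, C3 at 66.6, Cfp at 33.7, C5ar1 at 32.9, C3ar1 at 14.3 and C4b at 13.1 TPM. C1qb was apart from the rest there (361 to 551 against at most 156 TPM for C1qa), while C1qa, C1qc, Cfb and C3 each overlapped the next, as did Cfp and C5ar1, and C3ar1 and C4b. C3 lay above Cfp, and C5ar1 above C3ar1. The Cep120 groups had Cfb (means 120 and 130 TPM) and C1qb (84.7 and 92.4 TPM) on top, with C4b last.

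Across the 12 libraries log2 CPM values of the C1q chains went together (Pearson r from 0.987 to 0.991). C3ar1 and the chains gave r from 0.962 to 0.982, and C3 and the chains from 0.899 to 0.917. Cfb was negatively related to the other 8 genes, with r from -0.657 for C5ar1 to -0.394 for C4b. The 12 points share the split into Pkd1 KO and the rest, and no test was made. The genes most like the mean of the C1q chains were Efhd2 (r = 0.995), P2rx4 (0.992) and Snhg16 (0.990). Nearest to C3ar1 were Lyz2, Fcer1g and Ccr1 (0.994, 0.992 and 0.990), to C5ar1 Fam129a, Pde4b and Eno2 (0.990, 0.989 and 0.987), and to Cfp Fes, Fcgr1 and Trpv2 (0.983, 0.976 and 0.975). C3 was nearest to Osmr, Fgg and Il1rl2 (0.984, 0.983 and 0.980), C4b to Pirb, Cd300a and F13a1 (0.966, 0.964 and 0.963), and Cfb to 1600014C10Rik, Slc4a9 and Ndrg1 (0.940, 0.925 and 0.922). Lyz2 and Fcgr1 are macrophage markers on the list above, Osmr is a receptor of the interleukin-6 family, and Slc4a9 is an anion exchanger of intercalated cells.

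Of 49 other complement genes, 36 were tested, and 16 were higher, 8 lower and 12 not called in the Pkd1 comparison, with a median log2 fold change of 0.48. That is 16 of 36 against 22.1% higher over all genes, and 8 of 36 against 22.4% lower, so the count that fell is near that of all genes. In the Cep120 comparison 0 passed by edgeR, and 2 genes had an unadjusted p under 0.05, C8g (-0.45 log2 units) and the carboxypeptidase Cpb2 (-2.01), named after its value was seen. The 18 genes named by rule kept their direction in the Pkd1 comparison without both replicate 3 controls, and Cd55 alone lost its call (0.40, edgeR adjusted p = 0.0984). Other classical genes rose in 4 of 6 cases and fell in 0. C1s1, a protease of the C1 complex, was at 176, 155 and 109 CPM in Pkd1 KO and 39.4 to 52.4 CPM in Pkd1 controls (log2 fold change 1.70, edgeR adjusted p = 1.87e-05). C1ra, its partner protease, rose by 0.96 (adjusted p = 0.00807). Of 4 lectin pathway genes tested 3 rose. Masp1, a protease that lectins activate, was at 85.8, 98.4 and 51.5 CPM in Pkd1 KO and 6.98 to 7.90 CPM in Pkd1 controls, a 10.4-fold rise (edgeR adjusted p = 6.71e-07). Fcna, a ficolin, was at 16.7, 2.38 and 6.68 CPM against 0.163 to 0.301 CPM (edgeR adjusted p = 6.78e-05), and Colec12, a scavenger collectin, rose by 0.88 (adjusted p = 0.000821).

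Factor D, the other protease of the alternative pathway, is an adipocyte product, and Cfd was at 452, 0 and 180.0 CPM in Pkd1 KO 1 to 3 and at 26.7 to 122 CPM in Pkd1 controls, with no call (log2 fold change 1.53, edgeR adjusted p = 0.477). It was called with Xist presence as a term (10.02, edgeR adjusted p = 0.0467), and turned to -2.64 with voom. With no filter it was called at an unchanged 1.53 (edgeR adjusted p = 8.62e-21), despite its spread over the KO libraries. That setting also called 171 genes higher and 173 lower in the Cep120 comparison, where the main fit called 0. Its p-values may therefore be too small. Cfd was at 0.154 and 0.195 CPM in Cep120 KO 1 and 2 against 65.2 CPM in Cep120 KO 3. Terminal pathway genes were scarce: 2 of 7 were tested, C8g fell by 1.29 (edgeR adjusted p = 0.000378) and C7 was at -0.73 without a call.

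Among 9 soluble regulators tested, 3 rose and 4 fell, beside 22.1% higher and 22.4% lower over all genes. Serping1, which encodes the C1 inhibitor, was at 700.1, 715 and 604 CPM in Pkd1 KO and 188 to 281 CPM in Pkd1 controls (log2 fold change 1.61, edgeR adjusted p = 3.44e-05). Cfi, which encodes factor I, the protease that inactivates C3b, rose by 1.94 (adjusted p = 0.000776). Cpn1, the catalytic chain of carboxypeptidase N, which trims C3a and C5a, fell by 1.05 (adjusted p = 0.000754). On membranes 2 of 6 regulators rose and 1 fell, namely Susd4 (0.58), Cd55 (0.60) and Cd59b (-1.11), and these calls were lost in 4, 8 and 8 of 26, 26 and 25 alternatives. Of 8 other receptors 4 rose and 2 fell. The counts that fell on membranes and among these receptors were near the share of all genes. Itgam, a chain of complement receptor 3 and also on the macrophage list, rose by 3.05 (adjusted p = 0.00095). Vsig4, a macrophage receptor for C3b, was at 6.30, 1.45 and 2.98 CPM in Pkd1 KO, at 0 to 0.189 CPM in Pkd1 controls and at 0 in all Cep120 KO libraries (edgeR adjusted p = 0.00087 in the Pkd1 comparison). Cd93, an endothelial and myeloid glycoprotein first described as a C1q receptor, fell by 0.59 (adjusted p = 0.000559).

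**Figure D4:**
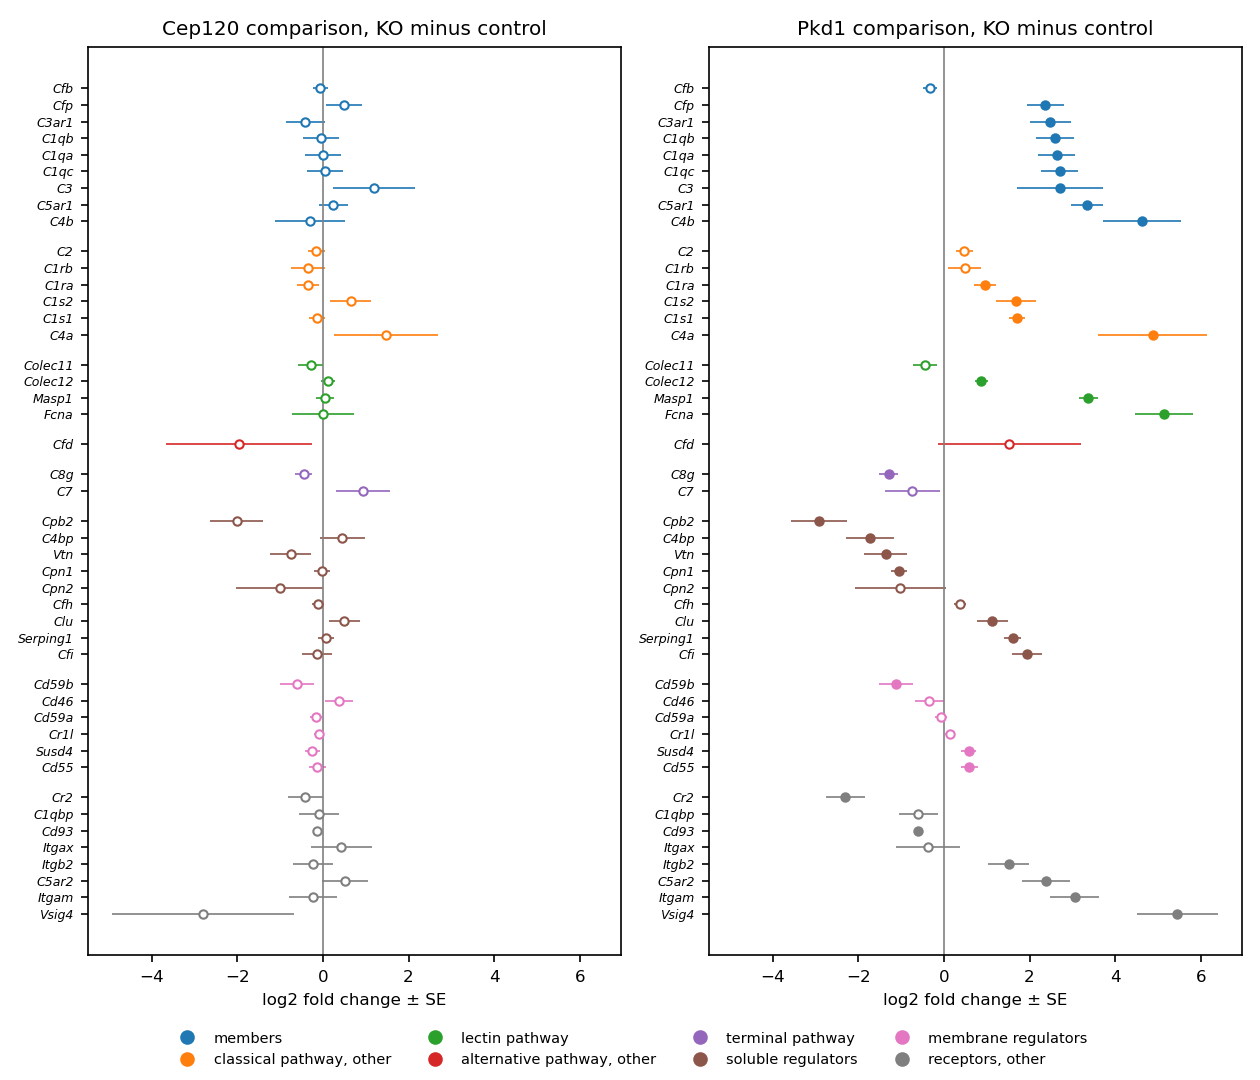
Log2 fold change with its SE of the 9 complement genes and 36 other complement genes by role, in the Cep120 comparison (left) and the Pkd1 comparison (right); filled symbols passed an adjusted p of 0.05. In the Pkd1 comparison 16 of the 36 rose and 8 fell, and in the Cep120 comparison no symbol is filled.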

How the data were processed

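Gene counts from RNA-seq of 12 whole-kidney libraries were re-analysed. Per the labels' protocols, kidneys were lysed in Trizol, RNA was purified on columns, and a SMARTer Ultra Low kit gave the cDNA. Tools named, without a role, in the submitters' processing notes are Salmon 0.8.2, featureCounts 1.4.6-p5, Subread, STAR 2.5.1a and bcl2fastq, with the build mm9. Strand use in counting is not stated there, and antisense partners cannot be told apart. The deposited gene table holds estimated counts, and deposited TPM values per gene served for comparing levels between genes. Estimated counts per transcript are also deposited, but hold 0% to 5.86% of C3 and 51.2% to 96.3% of Cfb gene counts, so isoforms of these genes were not used here. The authors' moderated log2 CPM, also deposited, served as an alternative input.

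After 287 repeated lines were dropped, counts were rounded, filtered with filterByExpr (19890 genes), scaled by TMM and fitted with 4 group means in edgeR 4.0.16 (R 4.3.3). Each comparison is KO minus control within a line, and the difference is the Pkd1 change minus the Cep120 change. The libraries of both lines shared the estimate of spread, so the p-values of each comparison depend on both. Adjusted p-values are Benjamini-Hochberg values over all genes tested, at 0.05. Standard errors were derived from fold change and F statistic. Library totals of 23070688 to 31837958 limit precision for weak genes, a limit of counting error only. Tested on simulated counts of 19890 genes, the fit found 42.6% of genes changed 2-fold and 73% of those changed 4-fold for the Pkd1 comparison with 4.76% false calls, and 45.2%, 73.8% and 5.92% for the Cep120 comparison. Other settings tried were scaling by upper quartile or RLE, DESeq2 1.42.0, limma 3.58.1 voom, other filters, a stricter threshold and the libraries of 1 line alone. A replicate block, terms for detected-gene class and Xist, and libraries left out were also tried.

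The 9 genes, the pathway and marker lists and the tests were chosen with earlier results of these data known. Named genes are the 9, up to 3 genes with the smallest Pkd1 p in each pathway list, and for likeness the 3 best correlated genes whose mean log2 CPM was 1 or more.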

Additional observations from a re-analysis of the deposited data

Results flagged for a closer look

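For 7 of the 9 complement genes the change in the Pkd1 line differed from that in the Cep120 line by a test of the difference itself in edgeR. Over all genes tested, 13.9% differed in the same direction by that test, so such a difference is not particular to complement. The log2 differences, Pkd1 change minus Cep120 change, were 2.63 for C1qa, 2.64 for C1qb, 2.65 for C1qc, 2.89 for C3ar1, 4.92 for C4b, 3.10 for C5ar1 and 1.88 for Cfp. The last was the least stable, and its losses are given with its values above. The lines share no libraries in these contrasts, though both enter the same estimate of spread. Their libraries also differ in Xist status and in the placing of the third controls.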

How the results depend on the processing

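In the Pkd1 comparison all 26 alternatives kept C5ar1 called (2.73 to 3.70), and 25 kept C1qa, C1qb, C1qc, C3ar1, C4b and Cfp, the exception being Xist presence as a term. C3 was called in 14 of 26, and Cfb in 0. With the Xist term the Pkd1 comparison called 2002 genes and 1 of the 9, and the log2 fold change of C3 was -0.042 and that of Cd59b 0.12. Leaving out each library in turn gave 7277 to 9266 genes and 7 to 8 of the 9 in the Pkd1 comparison, 0 to 2 genes and 0 of the 9 in the Cep120 comparison, and 4225 to 5781 genes and 6 to 8 of the 9 for the difference. The Cep120 comparison called 21 genes with DESeq2, 344 genes and 1 of the 9 (C3) with no filter, and 1 gene without both replicate 3 controls. At an adjusted p of 0.01 the difference called 2751 genes. The cause of each of these was not tested. Libraries with the same replicate number showed little sign of pairing. The r of their deviations was 0.178, -0.054 and 0.148 in the Cep120 line and -0.096, -0.043 and -0.136 in the Pkd1 line. These values cannot exclude a pairing, since the placing of the third controls could hide it for replicate 3. With detected-gene class (above 28000 genes or not) as a term, 8 of the 9 were called in the Pkd1 comparison, where 4925 genes were higher and 4536 lower. For the difference 8 were called, with 3090 genes higher and 3086 lower. Pkd1 KO 1 to 3, Pkd1 controls 1 and 2 and the library labelled Cep120 control 3 were in the low class. All others were in the high class. With the replicate block the Pkd1 comparison called 7 of the 9 and 3943 genes higher and 3861 lower, C3 having an adjusted p of 0.108, and Cfp lost its difference between the lines (adjusted p = 0.0693). Upper quartile scaling moved the median of all genes to -0.13 in the Pkd1 comparison, with 3779 higher and 5095 lower, against 4388 and 4451.

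Signs turned in the Cep120 comparison for these log2 fold changes, none of them called under that setting. C1qa was at 0.0063 with upper quartile scaling, 0.013 with voom, 0.028 with the 5 CPM filter, 0.00045 with the replicate block, 0.15 with the deposited log2 CPM. Without each library in turn C1qa ran from -0.25 to 0.33, C1qb from -0.42 to 0.25, C1qc from -0.26 to 0.27, C3 from -0.097 to 1.67, C4b from -1.1 to 0.29, C5ar1 from -0.27 to 0.47 and Cfb from -0.25 to 0.051. With the deposited log2 CPM C1qb was at 0.039, C4b at 0.095 and Cfb at 0.059. C1qc was at -0.28 with the detected-gene term. With the Xist term C1qc was at -0.54, C3 at -1.07, C5ar1 at -0.19 and Cfp at -0.21. Without both replicate 3 controls C1qc was at -0.26 and C5ar1 at -0.0059. Cfd in the Pkd1 comparison was at -2.64 with voom and -2.33 with the deposited log2 CPM.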
